A study of Homo sapiens with 8 samples.

Results

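Collagen leaves the endoplasmic reticulum only after its chains have been hydroxylated and folded, and the 10 genes described here encode the enzymes and chaperones of that step. They are the prolyl 4-hydroxylase subunits P4HA1, P4HA2, P4HA3 and P4HB, the lysyl hydroxylases PLOD1, PLOD2 and PLOD3, the prolyl 3-hydroxylase P3H1, and the folding factors SERPINH1 and FKBP10. They were chosen by name for this role, all 10 were found among the 16796 genes of the count files under their current symbols, and all 10 were among the 14895 that passed the low-count filter (a total of at least 10 counts over the 8 libraries). Messenger RNA was sequenced in LX-2, an established human cell line derived from hepatic stellate cells (HSCs), the collagen-producing cells that become myofibroblasts (MFs) in the injured liver. All cultures grew in medium with 5% fetal bovine serum, and 4 received the vehicle DMSO (control) while 4 were given OSMI-1, which blocks O-GlcNAc transferase (OGT), at a dose of 50 µM over 24 h (OGTi). The enzyme attaches a single sugar, O-GlcNAc, to nuclear and cytoplasmic proteins. The comparison asks how blocking it changes the myofibroblast expression programme, and here what became of the machinery that folds collagen. All libraries came from this single cell line, so they do not represent stellate cells of different donors, and a bulk measurement cannot tell fewer cells that make a transcript from less of it per cell.

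The libraries held 24166756 to 28201215 counts. The 10 stellate cell and MF markers checked were all present and summed to 9050 to 10365 CPM (counts scaled to a common library total) in control and 7135 to 8396 in OGTi libraries. They include COL1A1, COL1A2, COL3A1 and SPARC, which are described below as lower in OGTi cells, so the sums are not independent of those results. Markers of hepatocytes (3 of 6 listed in the files, with ALB, TTR and CYP3A4 not listed) summed to 1.7 to 3.84 CPM in control and 7.17 to 11.6 in OGTi libraries. Immune (2 of 4 listed, without CD163 and CD3E), endothelial (3 of 4, without STAB2) and cholangiocyte (2 of 3, without EPCAM) markers each summed to 5.09 CPM or less in every library, and their part in the results was not tested.

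Prolyl 4-hydroxylase converts prolines of the collagen repeat to 4-hydroxyproline, which keeps the triple helix stable at body temperature. The enzyme is a tetramer of catalytic alpha subunits (P4HA1, P4HA2 or P4HA3) and of P4HB, the protein disulfide isomerase. Lysyl hydroxylases modify lysines that later carry sugars and cross-links, PLOD1 mainly in the helix and PLOD2 in the telopeptides, while PLOD3 also transfers glucose. Both kinds of enzyme need oxygen, iron, ascorbate and 2-oxoglutarate. P3H1 acts in a complex with CRTAP and the cyclophilin PPIB, SERPINH1 (HSP47) clamps the folded helix, and FKBP10 (FKBP65) is a prolyl isomerase that works with PLOD2.

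The promoter sequences were searched for short, general regulatory motifs. RefSeq windows (GRCh38.p14) of the 250 bases before the transcription start were found for 8 of the 10 genes, all but P4HA3 and FKBP10. The 4 shown belong to the catalytic subunit with the largest rise (P4HA1), to a gene that shares its motif but did not pass the test (PLOD2), to the chaperone SERPINH1, and to P4HB. Capitals mark ACGTG, the core of the hypoxia response element, on either strand in P4HA1 (chr10:73096867-73097116, minus strand) and PLOD2 (chr3:146161185-146161434, minus strand). They mark the heat shock element, the binding motif of heat shock factors, in SERPINH1 (chr11:75562003-75562252, plus strand) and CCAAT boxes in P4HB (chr17:81860536-81860785, minus strand).
P4HA1: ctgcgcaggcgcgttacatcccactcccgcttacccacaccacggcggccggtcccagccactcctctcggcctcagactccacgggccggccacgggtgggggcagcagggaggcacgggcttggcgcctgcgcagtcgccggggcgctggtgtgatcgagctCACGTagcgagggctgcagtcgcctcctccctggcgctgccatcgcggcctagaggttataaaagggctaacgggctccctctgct
PLOD2: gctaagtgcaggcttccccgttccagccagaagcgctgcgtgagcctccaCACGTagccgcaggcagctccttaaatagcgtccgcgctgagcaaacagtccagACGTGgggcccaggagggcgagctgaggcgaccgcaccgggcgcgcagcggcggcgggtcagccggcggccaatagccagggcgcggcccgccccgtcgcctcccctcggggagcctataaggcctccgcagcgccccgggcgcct
SERPINH1: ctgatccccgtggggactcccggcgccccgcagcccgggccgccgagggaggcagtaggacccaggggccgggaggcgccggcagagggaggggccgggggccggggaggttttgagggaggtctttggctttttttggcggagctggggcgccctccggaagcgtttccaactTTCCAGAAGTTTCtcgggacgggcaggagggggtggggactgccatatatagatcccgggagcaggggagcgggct
P4HB: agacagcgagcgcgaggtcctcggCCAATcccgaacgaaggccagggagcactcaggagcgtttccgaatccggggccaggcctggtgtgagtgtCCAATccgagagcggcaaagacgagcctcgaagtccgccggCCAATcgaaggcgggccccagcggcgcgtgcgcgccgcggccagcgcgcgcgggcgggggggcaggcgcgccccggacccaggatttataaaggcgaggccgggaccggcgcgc

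The ACGTG core stood at -86 to -82 from the start of P4HA1 and at -200 to -196 and -146 to -142 in PLOD2. In all, 3 of the 8 genes held it (SERPINH1 in a second, downstream window), against 18.5% of the 35116 promoter windows of all genes. The heat shock element of SERPINH1, at -76 to -64, occurred in 0.441% of all windows and in 1 of the 8 genes. CCAAT was found in 4 of the 8 genes (32% of all windows), 3 times in P4HB, and the GC box GGGCGG in 6 (42.6%). SERPINH1 held both of these only in its second, downstream window, and the shares are per window rather than per gene. The TEAD core GGAATG was found in 0 of the 8 and in 11.9% of all windows, which says only that these letters are not in these 250 bases. Both strands were searched for every motif. ACGTG can lie within the E-box CACGTG, which other factors bind, but none of the matches in P4HA1, PLOD2 and SERPINH1 was part of that sequence. A match is a description of the sequence.

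The machinery did not move as a block. Of the 10 genes, 4 rose (P4HA1, PLOD1, P3H1 and P4HB), 3 fell (FKBP10, PLOD3 and SERPINH1) and 3 did not pass the test (P4HA2, P4HA3 and PLOD2) by the Wald test of DESeq2 with replicate number as a block and a Benjamini-Hochberg adjusted p (q) of 0.05 or lower. Among all genes with a q, 46.6% were called, 22.7% higher and 24.0% lower in OGTi cells, so 7 of 10 is to be read against a background in which calls were common. The median log2 fold change of the 10 was -0.05, against 0.00 over all genes, and the range ran from -0.94 (FKBP10) to 1.0 (P4HA1). The libraries of the 2 groups did not overlap for 5 of the 10 (P4HA1, PLOD1, PLOD3, P3H1 and FKBP10), against 38.0% of all genes.

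**Figure D1:**
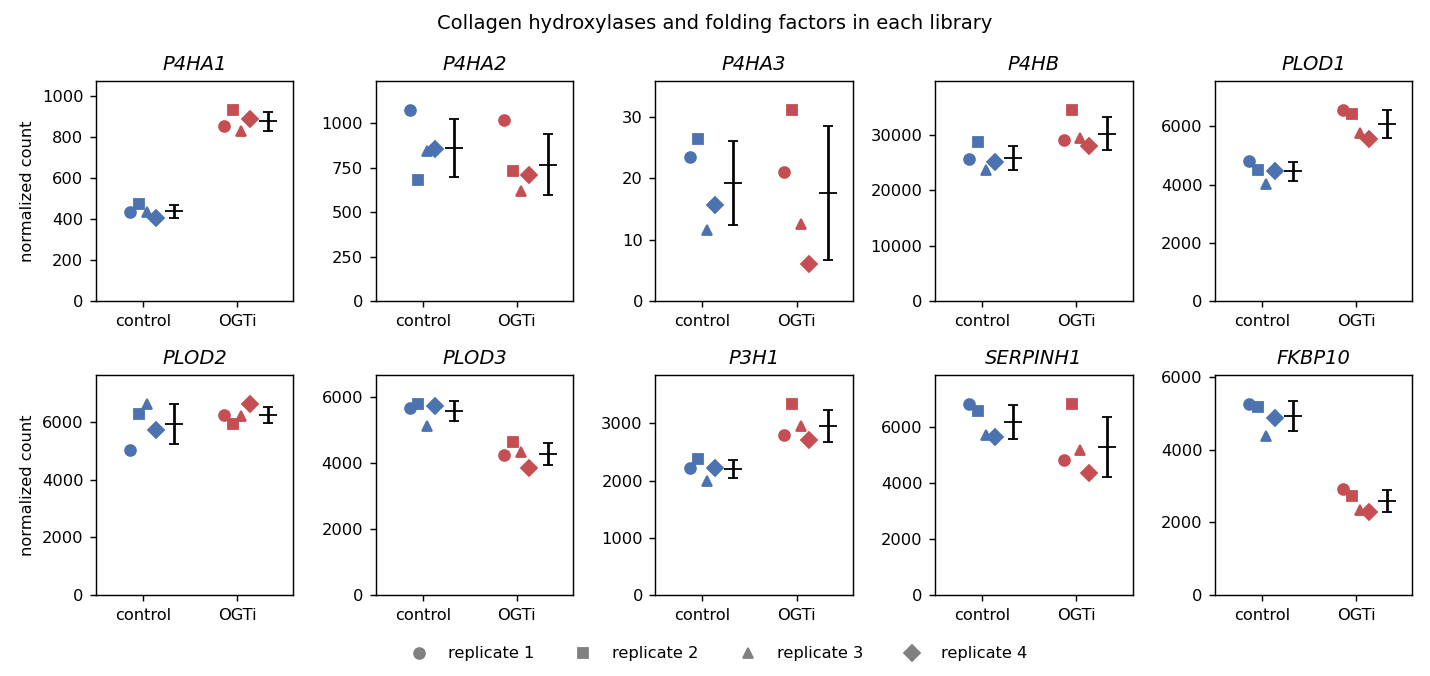
Normalized counts (counts divided by the DESeq2 size factor) of the 10 genes, with 1 point per library, marker shape giving the replicate number and the black bar the mean ± SD over 4 libraries. The groups are apart for P4HA1, PLOD1, P3H1, PLOD3 and FKBP10, while SERPINH1 and P4HB overlap and P4HA3 stays at or below 31.1 counts.

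P4HA1 (chromosome 10, 73007217 to 73096974), a catalytic subunit of collagen prolyl 4-hydroxylase, rose in OGTi cells more than any other gene of the group. Its normalized counts were 436, 475, 433 and 403 in control replicates 1 to 4 and 851, 931, 829 and 888 in OGTi replicates 1 to 4. Every OGTi library lay above every control library, and the log2 ratio within a pair was between 0.93 and 1.14. The mean went from 437 ± 29.9 to 875 ± 44.9 (SD, n = 4 each), a DESeq2 log2 fold change of 1.0 ± 0.11 (SE, q of 2.92e-19). Of all genes with a q, 11.8% had a larger absolute log2 fold change.

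P4HA2 (chromosome 5, 132190147 to 132295315), the other main catalytic subunit, did not pass the test. Its normalized counts were 1077, 681, 843 and 855 in control and 1017, 730, 618 and 708 in OGTi replicates 1 to 4. The groups overlapped, and replicate 1 had the highest value in both. The log2 fold change was -0.17 ± 0.11 (DESeq2 q of 0.203), with a 95% interval from -0.40 to 0.05, and P4HA2 was lower in 3 of 4 pairs. P4HA2 was also the sole gene of the 10 with fractional counts, in 7 of 8 libraries. This means that reads aligned to more than one gene were shared out. Its locus overlaps MIR6830 on the same strand and, on the other strand, P4HA2-AS1, PDLIM4 and SLC22A4 among others. Reads were counted strand-specifically. Which genes the reads were shared with was not tested.

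P4HA3 (chromosome 11, 74235801 to 74311640), the least abundant subunit, had 11.5 to 26.3 normalized counts in control and 6.01 to 31.1 in OGTi libraries. At this depth no difference was detectable (DESeq2 log2 fold change of -0.24 ± 0.54, q of 0.756), and the 95% interval ran from -1.31 to 0.83. The sign rested on replicate 4, without which the log2 fold change was 0.07 (q of 0.949).

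P4HB (chromosome 17, 81843159 to 81860856), the beta subunit, which as protein disulfide isomerase also folds many other secreted proteins, was the most abundant gene of the group. Its normalized counts were 25638, 28767, 23632 and 25127 in control and 29058, 34519, 29398 and 27901 in OGTi replicates 1 to 4. P4HB was higher in all 4 pairs, although control replicate 2 lay above the lowest OGTi library. The log2 fold change was 0.23 ± 0.06 (DESeq2 q of 0.00104), and in edgeR without the block its q was 0.0573.

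The balance between the catalytic subunits differed between the groups. The count ratio of P4HA2 to P4HA1 was 2.47, 1.43, 1.95 and 2.12 in control replicates 1 to 4 and 1.2, 0.784, 0.746 and 0.798 in OGTi replicates 1 to 4. The groups did not overlap, and the log2 ratio fell by 1.18 (two-sided exact permutation test, p of 0.0286 and q of 0.0494 over 19 ratios, with no smaller p possible for 4 against 4 libraries). This test, used for all ratios here, left the pairing of replicates out. Per kilobase of transcript (MANE Select in GENCODE release 44), P4HA1 held 44.8% ± 5.3 (SD, n = 4) of the alpha subunit counts in control cultures and 64.6% ± 5.07 (n = 4) under OGTi, while P4HA2 went from 52.8% ± 5.78 to 33.8% ± 4.94. These shares depend on the length used. Per kilobase of coding sequence, a scale added after the data were seen, P4HA1 went from 33.4% ± 4.98 to 53% ± 5.4, and the groups again did not overlap. The 3 alpha subunits together rose from 358 ± 32.9 to 496 ± 42.8 normalized counts per kilobase of transcript, without overlap. The count ratio of P4HB to the 3 alpha subunits was 16.7 to 24.3 in control and 15.4 to 20.4 in OGTi libraries, and its log2 value differed by -0.10 (exact permutation p of 0.571).

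**Figure D2:**
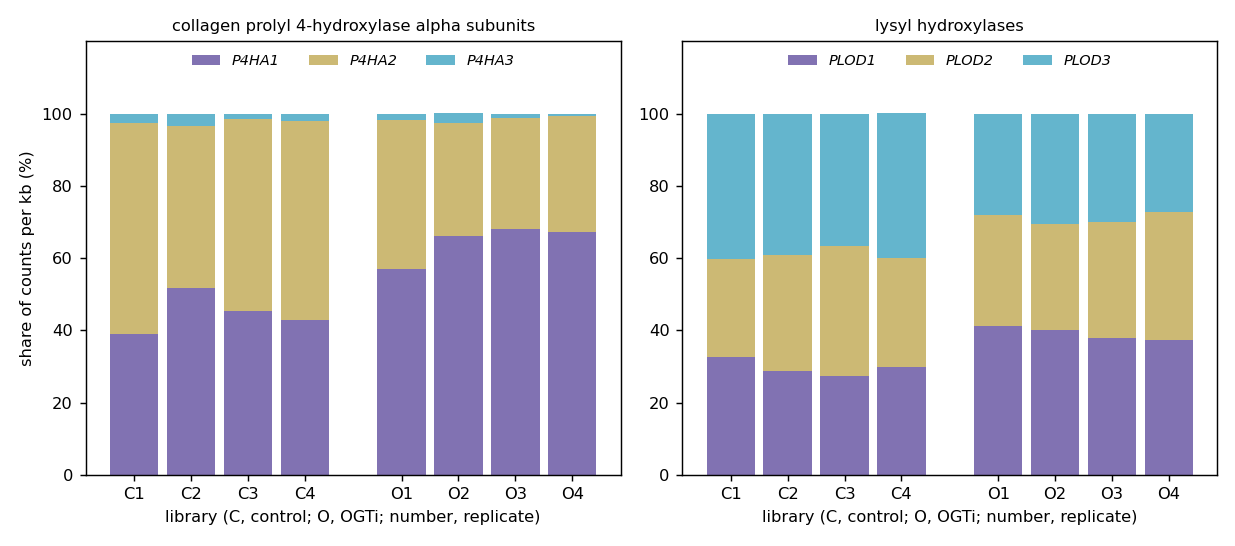
Share in percent of each subunit in the summed counts per kilobase of transcript of its family, in each of the 8 libraries. P4HA1 takes 39.1% to 51.8% of the alpha subunits in control and 57.1% to 68.1% in OGTi libraries, PLOD1 takes 27.4% to 32.6% and then 37.4% to 41.1% of the lysyl hydroxylases, and the PLOD2 share overlaps between the groups.

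The 3 lysyl hydroxylases moved in different directions. PLOD1 (chromosome 1, 11934205 to 11975538) had 4827, 4490, 4028 and 4484 normalized counts in control and 6568, 6431, 5761 and 5573 in OGTi replicates 1 to 4. All OGTi libraries were above all controls, and the DESeq2 log2 fold change was 0.45 ± 0.07 (q of 1.76e-09). PLOD3 (chromosome 7, 101205977 to 101218420), the enzyme that also glycosylates hydroxylysine, had 5658, 5796, 5112 and 5724 in control and 4245, 4647, 4324 and 3857 in OGTi replicates 1 to 4. All its OGTi libraries were below all controls, and its log2 fold change was -0.39 ± 0.08 (DESeq2 q of 2.14e-06). PLOD2 (chromosome 3, 146035139 to 146163725), whose product makes the hydroxylysines of the pyridinoline cross-links found in fibrotic collagen, had 5043 to 6638 in control and 5919 to 6614 in OGTi libraries. The PLOD2 groups overlapped, 2 of 4 pairs were higher, and the log2 fold change was 0.08 ± 0.08 (DESeq2 q of 0.445, 95% interval from -0.08 to 0.25).

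Within the family, the count ratio of PLOD1 to PLOD3 was 0.775 to 0.853 in control and 1.33 to 1.55 in OGTi libraries. The 2 groups did not overlap, and the ratio was 1.78-fold higher in OGTi cells (exact permutation p of 0.0286, q of 0.0494 over 19 ratios). The ratio of PLOD1 to PLOD2 was 1.29-fold higher (exact p of 0.0857, q of 0.109), and the ratio of PLOD3 to PLOD2 was 1.38-fold lower (exact p of 0.0571, q of 0.0776). Neither passed the threshold, and both had the same direction in all 4 pairs. Per kilobase of transcript, PLOD3 was the most abundant of the 3 in control cells (39.1% ± 1.65 of the family) while in OGTi cells it held 29% ± 1.54, overlapping with PLOD2 (31.9% ± 2.52), and PLOD1 held 39.1% ± 1.77. Per kilobase of coding sequence the PLOD3 share went from 35.1% ± 1.76 to 25.8% ± 1.5 and in control was not apart from PLOD2 (36.3% ± 3.97). The summed level of the family, 5053 ± 135 in control and 5221 ± 190 in OGTi cells per kilobase of transcript, overlapped between the groups.

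P3H1 (chromosome 1, 42746335 to 42767084), which makes the rare 3-hydroxyproline of fibrillar collagen, rose in OGTi cells. Its normalized counts were 2213, 2379, 1997 and 2212 in control and 2793, 3344, 2958 and 2706 in OGTi replicates 1 to 4. The groups did not overlap (log2 fold change of 0.42 ± 0.08, q of 9.20e-07 by DESeq2). The partners of its complex were not called, with log2 fold changes of 0.01 for CRTAP (95% interval from -0.13 to 0.15) and 0.06 for PPIB (-0.11 to 0.22). The ratio of P3H1 to CRTAP was higher in all 4 pairs, 1.33-fold on average, with an exact permutation p of 0.0571 (q of 0.0776). The paralogs P3H2 (0.07) and P3H3 (0.18) were not called. P3H4, which lacks the catalytic site and binds PLOD1, fell (log2 fold change of -0.34 ± 0.09, DESeq2 q of 0.000917).

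FKBP10 (chromosome 17, 41812680 to 41823213), the prolyl isomerase FKBP65, had the largest fall of the group. Its normalized counts were 5266, 5173, 4374 and 4877 in control and 2926, 2734, 2352 and 2293 in OGTi replicates 1 to 4. The highest OGTi library lay well under the lowest control, and the fall was seen in every pair, with log2 ratios from -1.09 to -0.85. The log2 fold change was -0.94 ± 0.07 (DESeq2 q of 4.81e-35), a 1.92-fold fall. The count ratio of PLOD2, with which it works, to FKBP10 went from 0.958 to 1.52 in control to 2.13 to 2.88 in OGTi libraries, 2.03-fold higher (exact permutation p of 0.0286, q of 0.0494 over 19 ratios).

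SERPINH1 (chromosome 11, 75562056 to 75572783), the collagen-specific chaperone HSP47, had a smaller and less certain fall. Its normalized counts were 6817, 6567, 5701 and 5622 in control and 4807, 6807, 5160 and 4357 in OGTi replicates 1 to 4. OGTi replicate 2 was among the highest libraries of the whole set, whereas the other OGTi libraries were below all controls. The log2 fold change was -0.24 ± 0.09 (DESeq2 q of 0.0181), lower in 3 of 4 pairs. The call was lost when the block was dropped, with a q of 0.149 by DESeq2 or 0.159 by edgeR, and when replicate 1 (0.177) or replicate 4 (0.152) was left out, and over the 10 alternative fits its q ranged from 0.00284 to 0.177.

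**Figure D3:**
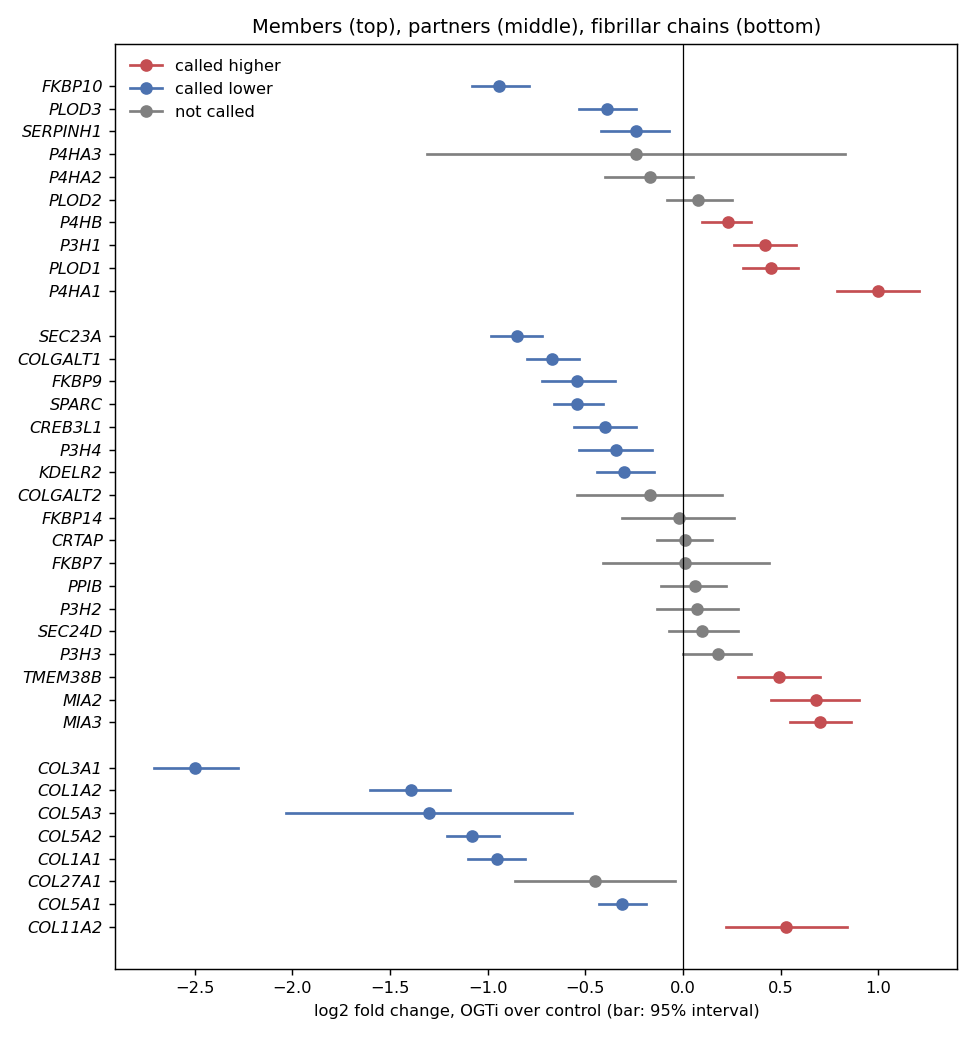
DESeq2 log2 fold change (OGTi relative to control, 95% interval) for the 10 genes (top), 18 partners of collagen folding and export (middle) and the 8 fibrillar collagen chains that received a q (bottom), coloured by the call on q, which is adjusted for all genes while the interval is not. Fold changes of the 10 genes lie on both sides of 0, between -0.94 and 1.0, and 6 of the 8 chains were called lower, down to -2.50 for COL3A1.

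The order of the levels differed between the groups. In control cells, normalized counts per kilobase of transcript put P4HB first (10583 ± 886), then SERPINH1 (3001 ± 294), PLOD3 (1975 ± 111), FKBP10 (1904 ± 155), PLOD2 (1580 ± 186), PLOD1 (1498 ± 110), P3H1 (849 ± 60.3), P4HA2 (190 ± 35.8), P4HA1 (159 ± 10.9) and P4HA3 (8.51 ± 3.03). The libraries of neighbours overlapped from PLOD3 through FKBP10 and PLOD2 to PLOD1, and between P4HA2 and P4HA1, and were apart at the other steps. The catalytic alpha subunits were below the lysyl hydroxylases and P3H1, and all 3 together were below P3H1 alone. In OGTi cells PLOD1 (2044 ± 165) stood above PLOD2 (1664 ± 76.2) and overlapped with SERPINH1 (2567 ± 519), FKBP10 (997 ± 118) was below P3H1 (1139 ± 109) with overlap and P4HA1 (319 ± 16.4) was above P4HA2 (169 ± 38) without overlap. Some of these steps depend on the length used. Per kilobase of coding sequence, P4HA2 was above P4HA1 without overlap in control cells (540 ± 102 and 273 ± 18.6), and in OGTi cells the 2 overlapped (481 ± 108 and 546 ± 28). On the same scale PLOD1 (2789 ± 225) overlapped with PLOD2 (2744 ± 126) in OGTi cells, and FKBP10 (1475 ± 174) was above P3H1 (1336 ± 128), again with overlap.

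Several of the chains on which these enzymes act fell further than any of the 10 genes, but not all did. COL1A1 (DESeq2 log2 fold change of -0.95 ± 0.07) fell about as far as FKBP10 (-0.94 ± 0.07), and COL5A1 (-0.31 ± 0.06) fell less. Of 11 fibrillar chain genes listed, 8 received a q, 6 of these were lower (COL1A1, COL1A2, COL3A1, COL5A1, COL5A2 and COL5A3) and 1 was higher (COL11A2), with a median log2 fold change of -0.95 over the 11 against 0.00 over all genes. The shares over all genes were 24.0% lower and 22.7% higher. The largest statistics were those of COL3A1 (-2.50 ± 0.11, DESeq2 q of 3.36e-112), COL5A2 (-1.08 ± 0.07, q of 1.43e-52) and COL1A2 (-1.39 ± 0.10, q of 2.77e-40). To set each folding gene against its substrate, its count was divided by the summed counts of COL1A1 and COL1A2, the chains of type I collagen, in the same library. This ratio does not depend on the scaling between libraries. It is mainly a ratio to COL1A1, which averaged 84778 normalized counts in control cells against 7891 for COL1A2, the chain that fell further.

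The ratio was higher in all OGTi than in all control libraries for 8 of the 10 genes, and lower for 0. Over all 14893 genes that passed the filter, the type I chains left out, the same was true of 74.1% (higher) and 1.28% (lower), so the count is near the background. The summed type I chains were 1.98-fold lower in OGTi cells and the median gene had a 1.99-fold higher ratio, with 5 of the 10 genes above that median and 5 below. For P4HA1 the ratio went from 0.00433 to 0.00544 in control to 0.0162 to 0.0206 in OGTi libraries, a 3.97-fold difference. PLOD1 (2.7-fold), P3H1 (2.65-fold), P4HB (2.32-fold) and PLOD2 (2.1-fold) also lay above the median gene, and P4HA2 (1.76-fold), SERPINH1 (1.68-fold) and PLOD3 (1.52-fold) lay below it. Each of these 8 had an exact permutation p of 0.0286 and a q of 0.0494 over 19 ratios. That q rests on 11 ratios at the smallest p possible and would be 0.0543 with 1 fewer, and the 10 ratios share their denominator.

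The ratio of FKBP10 to the type I chains was 0.0575, 0.0592, 0.0436 and 0.0533 in control and 0.0707, 0.0525, 0.0461 and 0.0531 in OGTi replicates 1 to 4. The groups overlapped, 2 of 4 pairs were higher, and the log2 ratio differed by 0.05 (SD of 0.20 in control and 0.26 in OGTi, exact permutation p of 0.857), which does not show that both fell equally. For P4HA3 the log2 ratio differed by 0.71 with an exact p of 0.286, on at most 31.1 normalized counts.

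**Figure D4:**
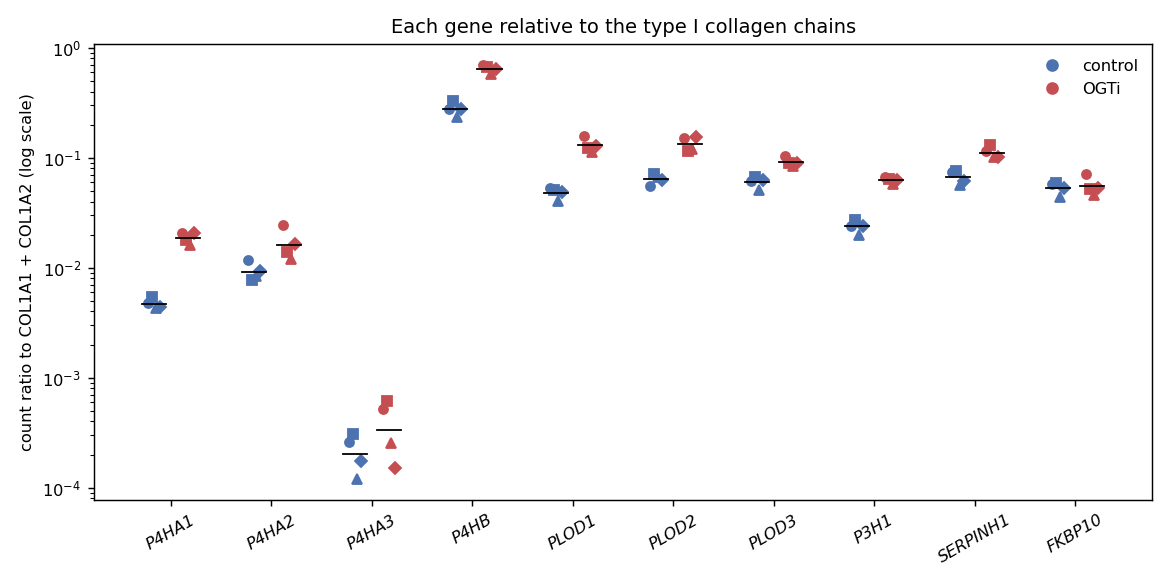
Ratio of the count of each gene to the summed counts of COL1A1 and COL1A2 in the same library, on a log axis, with 4 control and 4 OGTi libraries and a line at the geometric mean. The groups are apart for 8 genes, most for P4HA1 (0.00433 to 0.00544 against 0.0162 to 0.0206), and overlap for FKBP10 and P4HA3. Over all genes the groups are apart in the same direction for 74.1%.

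Other genes of collagen modification, folding and export also split. Of 18 partners listed, 3 were higher (MIA3, MIA2 and TMEM38B), 7 were lower (SEC23A, COLGALT1, SPARC, FKBP9, CREB3L1, P3H4 and KDELR2) and 8 did not pass the test, with a median log2 fold change of -0.01. Over all genes with a q, 22.7% were called higher and 24.0% lower, so a split of this kind was common. COLGALT1, which adds galactose to hydroxylysine, fell from 5700 ± 457 to 3590 ± 212 normalized counts (log2 fold change of -0.67 ± 0.07, DESeq2 q of 9.91e-22), and its control libraries (5081 to 6133) lay above its OGTi libraries (3305 to 3817). FKBP9, a relative of FKBP10, fell (-0.54 ± 0.09, q of 1.08e-07), while FKBP14 (-0.02) and FKBP7 (0.01) were not called.

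MIA3, the export receptor TANGO1 that packs procollagen into carriers, had 1431 to 1736 normalized counts in control and 2454 to 2774 in OGTi libraries (log2 fold change of 0.70 ± 0.08, DESeq2 q of 8.47e-18). MIA2, its partner at the exit sites, rose as well (0.68 ± 0.12, q of 3.12e-08). SEC23A, a coat protein of the same carriers, had 4962 to 5729 in control and 2887 to 3124 in OGTi libraries (-0.85 ± 0.07, q of 1.79e-33), and SEC24D was not called (0.10). The receptors and this coat protein differed in direction. TMEM38B, an ion channel of the endoplasmic reticulum, rose (0.49 ± 0.11, q of 2.13e-05), CREB3L1, a transcription factor that activates collagen genes, fell (-0.40 ± 0.08, q of 7.14e-06), and SPARC, a secreted collagen-binding protein, fell (-0.54 ± 0.07, q of 3.86e-15).

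P4HA1, P4HA2 and PLOD2 are textbook targets of the hypoxia-inducible factor, and the hydroxylases share their cofactors with the enzymes that sense oxygen, so both sets were examined. Of 18 hypoxia-inducible genes listed, 16 received a q, 9 were higher and 2 (ADM and LDHA) lower, with a median log2 fold change of 0.37. Among all genes, 22.7% were called higher and 24.0% lower. NDRG1 rose from 1098 ± 144 to 3168 ± 532 normalized counts (1.52 ± 0.08, DESeq2 q of 6.21e-75), SLC2A1 from 2678 ± 101 to 4839 ± 261 (0.85 ± 0.07, q of 6.98e-31) and VEGFA from 753 ± 126 to 1710 ± 232 (1.19 ± 0.11, q of 3.99e-24). P4HA1 rose as these did, while ADM (-0.76 ± 0.10, DESeq2 q of 5.76e-14) and LDHA (-0.56 ± 0.07, q of 1.50e-13) fell. CA12, ANKRD37, BNIP3, PDK1 and AK4 of the list were not called, and neither were P4HA2 and PLOD2. Whether the factor itself was active was not tested.

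Among 10 other hydroxylases that use 2-oxoglutarate, 9 received a q, of which 2 were higher, 1 was lower and 6 were not called, with a median of 0.02. The share called over all genes was 46.6%. EGLN2, a prolyl hydroxylase of the hypoxia-inducible factor, fell (log2 fold change of -0.69 ± 0.09, DESeq2 q of 3.68e-14), and PHYH, the peroxisomal phytanoyl-CoA hydroxylase, rose (0.59 ± 0.12, q of 8.84e-06). JMJD6, a lysyl hydroxylase of nuclear proteins, was higher in all 4 pairs (0.30 ± 0.10, q of 0.0110) but lost its call when the block was dropped, at a q of 0.0595 by DESeq2 or 0.0692 by edgeR, and when replicate 2 (0.116) or 3 (0.0683) was left out. EGLN1 (-0.10), HIF1AN (0.06), P4HTM (0.01) and ASPH (-0.01) were not called.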

How the data were processed

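RNA-seq of 8 LX-2 cultures (4 control, 4 OGTi, labelled as biological replicates) was examined. The authors aligned reads with Bowtie2 2.3.5.1 and deposited RSEM 1.3.1 expected counts per gene for each library. RSEM was run strand-specifically and shares reads that align to several genes. A deposited table of the authors' own comparison (log2 fold changes and p-values) was not used.

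Expected counts were rounded, genes with a total under 10 left out, and OGTi tested against control with DESeq2 1.42.0 in R 4.3.3 (Wald test, replicate number as a block, q of 0.05 or lower over all genes). The study's methods pair the replicates, and same-numbered libraries deviated together (r of 0.366, 0.387, 0.16 and 0.324 over 10994 genes). Replicates 3 and 4 were not set apart from their crossed pairs. Control 3 with OGTi 4 (0.335) exceeded the 0.16 of pair 3 and the 0.324 of pair 4, and control 4 with OGTi 3 (0.251) exceeded the 0.16. The alternatives were edgeR 4.0.16, no block, TMM library sizes, other filters and leaving out each replicate. Ratios within a library (pseudocount 0.5) were compared by two-sided exact permutation tests over the 8 libraries, which did not use the pairing. A paired sign-flip test gave a p of 0.125 for each of the 11 ratios that passed. That is the smallest p it can give with 4 pairs, so under pairing no ratio could pass. The DESeq2 and edgeR fits were tested on simulated data without a replicate effect, which cannot test the block. Intervals are 95% and library depth was 24166756 to 28201215 counts. Coordinates and lengths are from GENCODE release 44 on GRCh38.

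The genes and lists were chosen with earlier results of these data known. All 10 genes are described, and from the lists those with the largest absolute Wald statistic (up to 8 partners and 3 of each other list) whose normalized counts averaged 100 or more. Other list genes were named after their values were seen.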

Additional observations from a re-analysis of the deposited data

Results flagged for a closer look

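Of 92 groups of 4 libraries examined for a library that stood apart from the other 3 (Dixon's criterion, which chance meets in about 1 of 20 groups, or 4.6 here), 2 were picked out, and both concerned OGTi replicate 1. The log2 ratio of P4HA2 to P4HA1 was 0.26 in that library and -0.42 to -0.33 in the other OGTi libraries, and P4HA2 was also highest in replicate 1 of the control group. VEGFA had 1363 normalized counts in OGTi replicate 1 and 1813 to 1844 in the others, all above the control maximum of 907.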

How the results depend on the processing

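Of 100 values for the log2 fold changes of the 10 genes under 10 alternative fits, 94 kept their direction and their side of the threshold. Without the replicate block, SERPINH1 was -0.23 in DESeq2 (q of 0.149) and -0.23 in edgeR (q of 0.159), P4HB was 0.23 in edgeR (q of 0.0573), and 1 rather than 2 of the other 2-oxoglutarate hydroxylases was called higher in either tool. The paired fit changed the call of no other of the 10 genes. Leaving out 1 replicate at a time gave -0.34 to -0.15 for SERPINH1, with the call lost without replicate 1 or 4, -0.44 to 0.07 for P4HA3, reversed without replicate 4, and 1 to 2 of the other hydroxylases called higher. Of 133 alternative values of the ratios, 38, from a pseudocount of 1 or TMM library sizes, had a test and stayed on their side of the threshold. Library size cancels within a library apart from the pseudocount, so the TMM values could hardly differ and are no check. The other 95, from leaving out a replicate or pairing, could not reach the threshold and are values without a test. Those from pairing had to equal the main values, because a mean of differences is a difference of means. In all, 131 kept their direction and 2 did not, both for ratios that had not passed: the log2 ratio of FKBP10 to the type I chains went from 0.05 to -0.03 without replicate 1, and that of P4HA2 to P4HA3 from 0.10 to -0.21 without replicate 4. Coding length in place of transcript length, added after the data were seen, moved the family shares of P4HA1, P4HA2, P4HA3 (control), PLOD2 and PLOD3 but not which groups overlapped. Depth limits P4HA3, at 6.01 to 31.1 normalized counts.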

Other observations

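For the 3 of the 10 genes with the highest mean normalized count (not scaled for length), the genes with the most similar pattern over the 8 libraries were sought among 10926 genes, by the root mean square difference of centred log2 values. They were GORAB (0.034) and MIGA2 (0.037) for P4HB, TNKS2 (0.040) and ICE1 (0.045) for PLOD2, and C8orf82 (0.059) and MZT2A (0.059) for SERPINH1. Of these 6, MIGA2 was called (log2 fold change of 0.20, DESeq2 q of 0.033).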
